A study of Rattus norvegicus with 19 samples.

Results

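The genes described here are transcription factors and other markers known from hippocampal and cortical patterning, other than Prox1, together with the putative enhancers that the deposited table places within 1 Mb of them. Of 10 genes chosen by symbol, 9 were found among the 17715 gene symbols of the table: Lhx2, Lhx9, Lef1, Zic1, Wfs1, Nr2f1, Nr2f2, Nr3c2 and Etv1. The other, Zbtb20, was not analysed here. The 9 genes were paired with 175 of 27538 TAPEs, the study's name for transcriptionally active putative enhancers. A TAPE is an intergenic site of open chromatin with RNA reads from both strands. The rule that picks them uses symbols and distances and no expression value, although the genes were proposed with earlier results of these data known.

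The study sequenced ribosome-depleted total RNA of primary rat (Sprague-Dawley) neuron cultures and asked which TAPEs and genes vary together. Cortex, hippocampus or striatum was dissected at embryonic day 18, and the cells were cultured for 11 days. They then received vehicle (neurobasal medium) or KCl, a depolarizing agent, for 1 h. Each region and treatment gave 3 libraries, except striatum vehicle with 4, for a total of 19, as the sample titles and treatment labels give them. The study's methods count the striatal libraries the other way round, with 4 KCl and 3 vehicle. For KCl, the labels of the samples give 25 mM while the text of the series gives 10 mM. Each culture is a mixture of neurons and glia, and nothing states that replicates came from separate litters, so that p-values measure only the spread between these libraries.

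Library totals recovered from the table ran from 46.4 to 72.5 M reads, above the 12.6 to 20.4 M reads per sample in the labels, and CPM here is relative to the recovered totals. One library, cortex vehicle 3, has a cortical title and a striatal tissue label. It was kept as cortex, and its log2 profile over 12974 genes had r = 0.996 with cortex libraries, 0.969 with hippocampal ones and 0.955 with striatal ones. Summed per-million read counts (CPM) of 7 cortical marker genes were 567 to 634 in the cortex libraries, 104 to 126 in hippocampus and 66.6 to 85.5 in striatum. The 5 hippocampal markers summed to 311 to 352 in hippocampus against 51.1 to 61.6 in cortex and 27.0 to 30.1 in striatum, with Fibcd1 at 0 to 1 read in each library. The 10 striatal markers summed to 542 to 680.1 in striatum and to at most 66.2 elsewhere.

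The hippocampus forms from the medial wall of the embryonic pallium, next to the cortical hem, a signalling centre that releases Wnt proteins. Lhx2 and its close relative Lhx9 are LIM homeodomain factors, and Lhx2 separates cortical tissue from the hem. Lef1 carries the Wnt signal from beta-catenin to target genes and is needed for dentate granule cells, and Zic1 is a zinc finger factor of the dorsal and medial telencephalon. Nr2f1 and Nr2f2 (COUP-TFI and COUP-TFII) are orphan nuclear receptors that set up areas of the pallium, while Nr3c2 is the mineralocorticoid receptor, abundant in hippocampal neurons. Wfs1, a membrane protein of the endoplasmic reticulum, marks pyramidal cells of field CA1, and Etv1, an ETS factor, marks projection neurons of the deep cortical layers.

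Promoter sequences were available in RefSeq for 5 of the 9 genes (Lhx2, Lef1, Nr2f1, Etv1 and Wfs1). They cover the 250 bases before the gene's start in assembly GRCr8, which is not the assembly of the deposited table (Rn6). The 4 shown belong to genes that were higher (Lhx2, Lef1) and lower (Nr2f1, Etv1) in hippocampus than in cortex, as described below. Letters run 5′ to 3′ on the gene's strand, and capitals mark a GC box (GGGCGG or its reverse complement CCGCCC) or an E-box (CAGCTG).
Lhx2, chr3:42535494-42535743, plus strand: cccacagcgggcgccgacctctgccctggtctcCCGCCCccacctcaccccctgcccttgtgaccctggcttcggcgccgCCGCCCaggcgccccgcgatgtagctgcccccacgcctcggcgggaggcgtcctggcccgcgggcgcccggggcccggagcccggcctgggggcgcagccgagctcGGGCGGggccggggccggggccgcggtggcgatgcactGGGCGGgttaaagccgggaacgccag
Lef1, chr2:222340463-222340712, plus strand: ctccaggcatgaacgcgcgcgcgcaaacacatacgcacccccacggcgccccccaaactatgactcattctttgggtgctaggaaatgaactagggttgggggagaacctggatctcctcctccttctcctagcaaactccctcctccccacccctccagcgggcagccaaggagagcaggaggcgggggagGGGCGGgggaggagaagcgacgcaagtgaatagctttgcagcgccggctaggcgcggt
Nr2f1, chr2:9785925-9786174, minus strand: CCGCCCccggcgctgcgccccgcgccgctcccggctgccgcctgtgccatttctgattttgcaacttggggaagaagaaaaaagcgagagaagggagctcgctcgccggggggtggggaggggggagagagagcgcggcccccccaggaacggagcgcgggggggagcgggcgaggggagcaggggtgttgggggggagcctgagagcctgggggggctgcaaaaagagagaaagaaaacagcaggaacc
Etv1, chr6:61317179-61317428, plus strand: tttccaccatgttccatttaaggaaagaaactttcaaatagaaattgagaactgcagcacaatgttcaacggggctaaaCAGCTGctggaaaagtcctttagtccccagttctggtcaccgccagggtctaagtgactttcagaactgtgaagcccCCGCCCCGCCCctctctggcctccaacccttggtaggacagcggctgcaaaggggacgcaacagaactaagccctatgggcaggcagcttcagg
The share of G and C was 80.8% for Lhx2, 63.2% for Lef1, 69.2% for Nr2f1 and 52.4% for Etv1, against a median of 51.2% over 33469 rat promoters. Lhx2 held 33 CpG dinucleotides and 4 GC boxes, whereas Etv1 held 6 CpG dinucleotides, 2 overlapping GC boxes and 1 E-box. A GC box occurs in 30.5% of all promoters of this length and an E-box in 12%. The letters CTTTGAT (LEF/TCF), TAATTA (LIM homeodomain), TGACCT and TGTTCT (nuclear and steroid receptors) and CCGGAAGT (ETS), searched on both strands, had no match in the 5 windows. They occur in 3.15%, 4.86%, 14.1%, 17.5% and 3.10% of all promoters, and the absence of a match says only that these letters are not in this window.

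Gene values were not listed as such in the table. The reads of a gene in each library were worked out from its deposited correlations with TAPEs of known reads, and are given as CPM, scaled to the library's total. CPM is not divided by length, so that levels can be compared between libraries for 1 gene but not between genes. In bulk cultures, fewer cells of a type and less RNA per cell cannot be told apart.

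All 9 genes were higher in hippocampal than in striatal cultures, and 8 of 9 differed between hippocampal and cortical cultures. Against cortex, Lhx9, Zic1, Lef1, Nr2f2, Nr3c2 and Lhx2 were higher in hippocampus, Nr2f1 and Etv1 were lower, and Wfs1 did not pass the test. The test was an exact two-sided permutation test of the difference of means of each gene's standardised profile, adjusted by Benjamini-Hochberg over 16573 genes. The adjusted p was 0.00756 for each of the 8 genes against cortex and 0.00149 for each of the 9 against striatum. These are the values reached by genes at the smallest p the arrangements allow, 0.00216 and 5.83e-04. Of all 16573 genes, 42.1% passed against cortex (21.5% higher and 20.6% lower in hippocampus) and 60.9% against striatum (30.4% higher and 30.5% lower). Log2 differences with standard errors come from limma voom on the recovered reads of 12974 genes, an analysis added after the data were seen, in which 64.2% of genes passed against cortex and 79.0% against striatum.

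**Figure D1:**
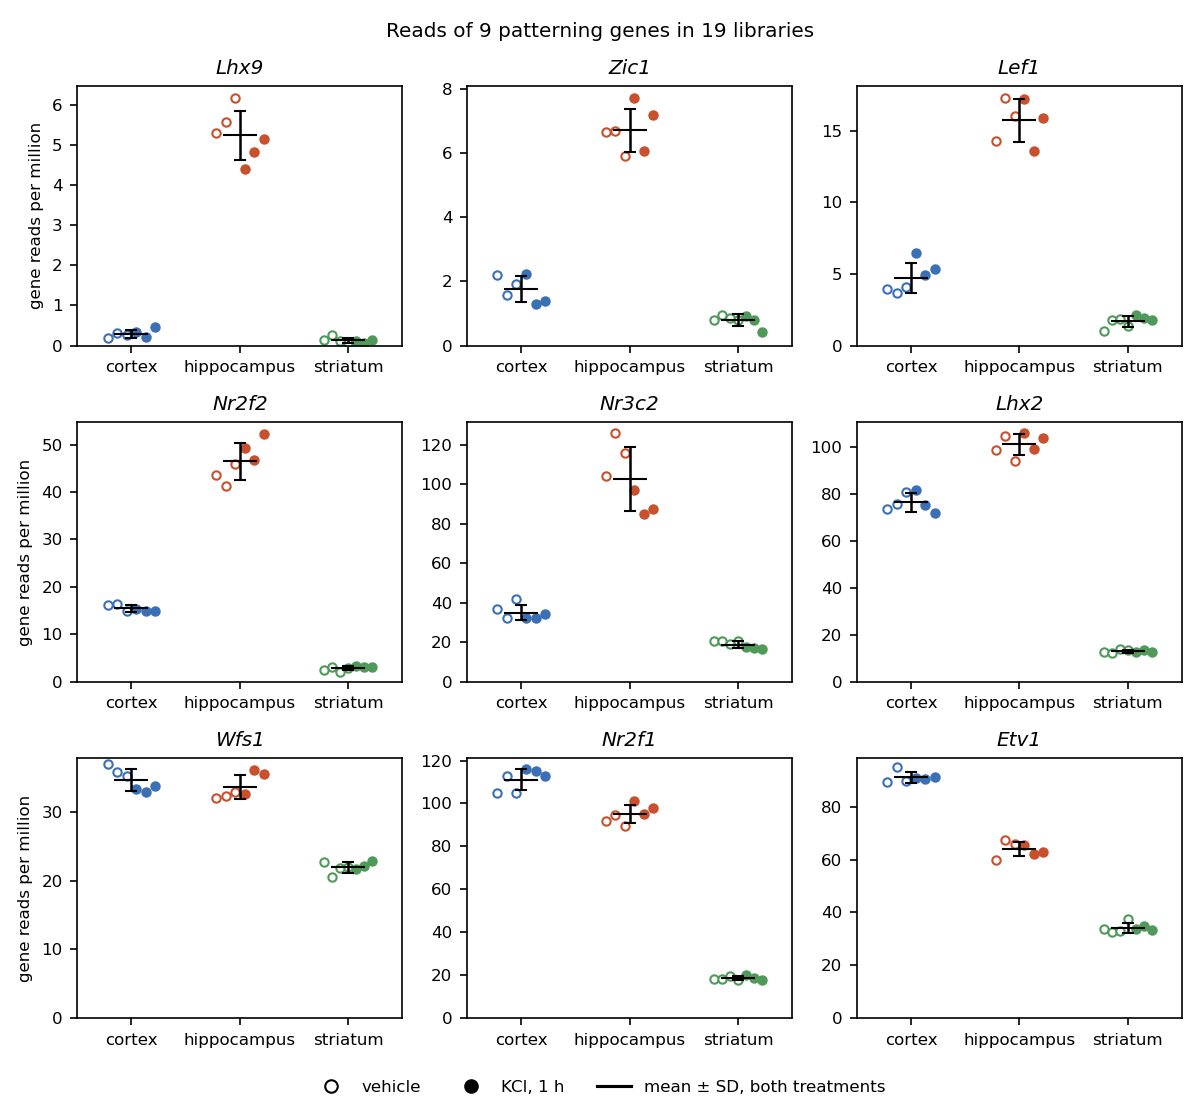
CPM (y axis, linear, from 0) of the 9 genes in each of 19 libraries, by culture (x axis). Open points are vehicle and filled points KCl libraries, and bars give the mean ± SD of a culture over both treatments (n = 6 cortex, 6 hippocampus, 7 striatum). Lhx9, Zic1, Lef1, Nr2f2 and Nr3c2 stand highest in hippocampus, Nr2f1 and Etv1 in cortex, and the Wfs1 values of cortex and hippocampus overlap.

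Of the LIM homeodomain genes, Lhx9 showed the widest gap between hippocampus and cortex among the 9. It ranged from 4.41 to 6.16 CPM in hippocampus, with a median of 5.22 and 252 to 340 reads a library. In cortex it ranged from 0.192 to 0.468 CPM (median 0.292) and in striatum from 0.0691 to 0.262 CPM (median 0.121), with at most 32 reads in any of these 13 libraries. No hippocampal library overlapped the others, while cortex and striatum overlapped each other. The mean was 5.23 ± 0.603 CPM in hippocampus (SD, n = 6), and the log2 difference was 4.12 (SE 0.21) from cortex and 5.37 (SE 0.27) from striatum.

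Lhx2 was abundant in both pallial cultures. It ran from 94.3 to 106 CPM in hippocampus (median 102), from 71.8 to 81.9 in cortex (median 75.6) and from 12.3 to 13.8 in striatum (median 12.8). The 3 ranges did not touch. The step from cortex to hippocampus was small, at a log2 difference of 0.41 (SE 0.035), compared with 2.96 (SE 0.050) from striatum.

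Lef1, the Wnt effector, was lowest in striatum and highest in hippocampus. Its CPM ran from 13.6 to 17.3 in hippocampus (median 15.9), from 3.70 to 6.44 in cortex (median 4.51) and from 0.986 to 2.15 in striatum (median 1.80). The cultures did not overlap, with log2 differences of 1.76 (SE 0.087) from cortex and 3.22 (SE 0.13) from striatum. Zic1 had the same order, at 5.92 to 7.73 CPM in hippocampus (median 6.68), 1.30 to 2.24 in cortex (median 1.76) and 0.422 to 0.947 in striatum (median 0.812). Its log2 difference was 1.97 (SE 0.12) from cortex and 3.12 (SE 0.17) from striatum.

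The COUP-TF pair split. Nr2f2 was highest in hippocampus, at 41.2 to 52.2 CPM (median 46.2), against 14.9 to 16.5 in cortex (median 15.2) and 2.02 to 3.32 in striatum (median 3.05). Nr2f1 was instead highest in cortex, at 105 to 116 CPM (median 113), with 89.3 to 101 in hippocampus (median 94.9) and 17.5 to 19.9 in striatum (median 18.2). For both genes each culture lay apart from the others. The log2 difference between hippocampus and cortex was 1.59 (SE 0.047) for Nr2f2 and -0.23 (SE 0.029) for Nr2f1, and from striatum it was 4.01 (SE 0.085) and 2.36 (SE 0.039).

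Nr3c2, the mineralocorticoid receptor, ranged from 85.0 to 126 CPM in hippocampus (median 100.3), from 32.3 to 42.1 in cortex (median 33.4) and from 16.4 to 20.7 in striatum (median 19.2). Over both treatments, hippocampal libraries had an SD of 16.2 CPM around 103 and still lay wholly above the rest. They had 115 ± 11.3 CPM with vehicle and 89.9 ± 6.22 with KCl (SD, n = 3 each). The log2 difference was 1.54 (SE 0.053) from cortex and 2.46 (SE 0.060) from striatum.

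Etv1, the deep-layer marker, was highest in cortex, at 89.3 to 95.2 CPM (median 90.8), lower in hippocampus at 60.0 to 67.6 (median 64.3) and lowest in striatum at 32.6 to 37.6 (median 33.6). The difference between hippocampus and cortex was -0.51 on the log2 scale (SE 0.034), and that from striatum 0.91 (SE 0.038). Wfs1 ran from 32.0 to 36.2 CPM in hippocampus (median 32.8) and from 32.9 to 37.0 in cortex (median 34.5), and these ranges overlapped. Its log2 difference from cortex was -0.04 (SE 0.035, adjusted p 0.434 by the exact permutation test), whereas it was 0.61 (SE 0.038) above the 20.5 to 22.9 CPM of striatum. Among vehicle libraries alone, Wfs1 was lower in hippocampus (32.0, 32.4 and 33.0 CPM) than in cortex (37.0, 35.9 and 35.2 CPM), with a voom log2 difference of -0.15 and an adjusted p of 0.0140. In this comparison 6696 of 12974 genes passed.

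**Figure D2:**
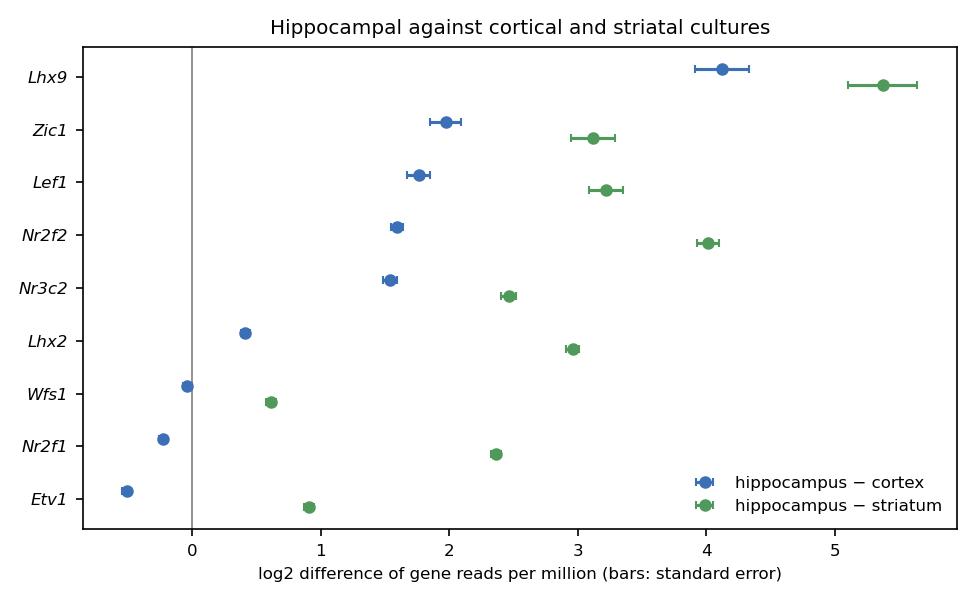
Log2 difference of gene CPM (x axis) between hippocampus and cortex (blue) and between hippocampus and striatum (green) for the 9 genes, from limma voom, with standard errors as bars. All green points lie above 0, and the blue points fall from 4.12 for Lhx9 to -0.51 for Etv1.

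In all, 5 genes (Lhx9, Zic1, Lef1, Nr2f2 and Nr3c2) stood at least 1.54 log2 units above cortex. Cortex was above striatum in each library for every gene but Lhx9. The share of all genes with this non-overlap was not computed. By voom, 4711 of 12974 genes were higher in cortex than in striatum and 4871 lower. Non-overlap of hippocampus above cortex held for 6 of the 9 genes and for 15.3% of all genes, and hippocampus below cortex for 2 of the 9 and for 13.3%. Hippocampus lay wholly above striatum for 9 of 9, against 22.4% of all genes.

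Other genes of pallial patterning were read from a list of 57, of which 53 had values. Against cortex, 21 were higher in hippocampus, 19 lower and 13 did not pass (75.5% passed, against 42.1% of all genes), and against striatum 37 were higher and 9 lower. Of 13 Wnt pathway genes, 6 were higher than in cortex and 4 lower. Wnt8b, a Wnt of the cortical hem, reached 3.82 ± 0.542 CPM in hippocampus (SD, n = 6) with 1315 reads, and had 0 reads in all 13 other libraries. A nominal 3 reads in place of 0 over each other culture would make this 480.1-fold the level of cortex and 486.8-fold that of striatum. The 3 reads are an arbitrary floor, so these ratios are not bounds. Wnt3a, another hem Wnt, had 86 reads in hippocampus, 1 in cortex and 0 in striatum. Wnt5a was higher at 18.4 ± 0.860 CPM against 6.58 ± 0.985 in cortex (n = 6 each), as was Axin2, a Wnt target that inhibits the pathway, at 13.5 ± 0.744 against 8.32 ± 0.753. The transcription factors Tcf7l1 and Tcf7l2, relatives of Lef1, were lower instead. Their means were 13 ± 2.32 and 8.03 ± 0.816 CPM in hippocampus and 24.9 ± 4.35 and 15 ± 1.64 in cortex.

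All 4 partners of LIM proteins on the list were lower in hippocampus than in cortex. Ldb2, a bridging cofactor of LIM homeodomain factors, had 9.15 ± 1.33 CPM in hippocampus against 115 ± 14.6 in cortex and 35.6 ± 2.97 in striatum. Lmo3, a LIM-only protein, had 25.5 ± 1.71, 65.4 ± 2.65 and 88.1 ± 4.10. The related Ldb1 and Lmo4 differed less, at 57.0 ± 4.04 and 67.3 ± 1.59 CPM in hippocampus and 75.2 ± 1.53 and 80.9 ± 5.45 in cortex.

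Among 13 pallial patterning factors with values, 5 were higher and 4 lower than in cortex. Emx2, a homeodomain factor required for hippocampal growth, had 24.7 ± 6.35 CPM in hippocampus, 9.57 ± 1.66 in cortex and 3.42 ± 0.720 in striatum. Lmx1a, a marker of the hem, had 3.48 ± 0.517 CPM in hippocampus and 0.0654 ± 0.0545 in cortex. Nfia and Nfib, factors of hippocampal and glial development, were also higher, and Meis2, abundant in striatal neurons, was lower at 37.5 ± 3.56 CPM against 175 ± 21.4 in cortex and 530.4 ± 21.4 in striatum. Among 12 factors of pallial neurons, 2 were higher (Prox1 and Neurod1, both dentate granule cell factors) and 7 lower, among them Tbr1, a factor of deep-layer neurons, at 9.37 ± 0.595 CPM against 30.8 ± 1.40. A last list held relatives of the chosen genes, with Zbtb18 as that of Zbtb20, and also Fkbp5 and Sgk1, which are not relatives. Of its 11 genes with values, 8 were higher than in cortex and 0 lower, the other 3 not passing. Of all genes, 21.5% were higher and 20.6% lower. The higher ones on the list included Zic2, at 6.65 ± 0.508 CPM against 2.23 ± 0.248, Zic4, at 2.38 ± 0.194 against 0.408 ± 0.118, and Etv4, at 21.8 ± 1.55 against 8.03 ± 0.308.

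Markers of other cells also differed between the cultures, and their part in these results was not tested. The 6 astrocyte markers summed to 1899.9 to 2009 CPM in hippocampus, 1091 to 1271 in cortex and 287 to 319 in striatum. Of these, 3 were higher in hippocampus than in cortex, 2 were lower and 1 did not pass, with Gfap at 757 ± 10.8 CPM against 41.2 ± 8.24 in cortex and 3.47 ± 0.583 in striatum. The 4 Cajal-Retzius markers summed to 295 to 309, 217 to 265 and 388 to 481 CPM, and only Calb2 passed against cortex, higher in hippocampus. The 7 interneuron markers summed to 344 to 390.3 CPM in hippocampus, 294 to 357 in cortex and 2774 to 3186 in striatum. Oligodendrocyte lineage markers (6) summed to 345 to 414, 453 to 489 and 166 to 203 CPM, and meningeal and choroid plexus markers (4) to 6.81 to 10.1, 11.3 to 15.1 and 0.901 to 2.43. Of the latter 4, 2 were higher in hippocampus than in cortex and 2 lower. The choroid plexus gene Ttr had 2.77 ± 0.945 CPM in hippocampus against 0.0768 ± 0.0641 in cortex. Thalamic and septal markers (5, of which Tcf7l2, Zic2, Zic4 and Zic5 are also in the list above) summed to 19.4 to 21.7, 15.9 to 20.9 and 5.71 to 6.93 CPM. Against cortex, 3 of these 5 were higher in hippocampus (Zic2, Zic4 and Zic5), 1 was lower (Tcf7l2) and 1 did not pass. Microglial markers (4) stayed at or below 0.63 CPM in sum in every library.

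The genes with the most similar profiles were ranked by Pearson r over the 19 libraries, which fall into 3 cultures, so that a high r mainly describes a shared order of the cultures. Lhx9 had r = 0.9909 with Prox1, Zic1 0.9789, Lef1 0.9782, Nr3c2 0.9634 and Nr2f2 0.9628, whereas Lhx2 had 0.7503, Wfs1 0.48, Nr2f1 0.4209 and Etv1 0.1162. Closest to Lhx9 was Plekhg5 (r = 0.9951), closest to Lef1 was Hhip (0.9936), a hedgehog-binding protein, and closest to Zic1 was Spata13 (0.9932). Nr3c2 was closest to Nkain3 (0.9969). Nr2f2 was closest to Slc17a6 (0.9957), the vesicular glutamate transporter VGLUT2, and then to Neurod1 (0.9956). Lhx2 was most like Aqp4 (0.9975), the water channel of astrocytes, while Nr2f1 was most like Ddr1 (0.9962), a collagen receptor, and then Wnt7b (0.9948). Wfs1 was closest to Col4a4 (0.9878) and Etv1 to Ntng2 (0.9957), a netrin-G.

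TAPE RNA is given as CPKM, per-million reads divided by the length of the TAPE in kb. The 175 TAPEs of the 9 genes were 1149 to 5457 bases long, with 96 upstream of the gene, 79 downstream and 0 inside a gene body. They were shallow, with a median of 14 reads summed over all 19 libraries. Small read numbers were often even, so mates of a pair were probably counted as separate reads, which the study does not state. PCR copies were kept, so read numbers overstate the molecules and intervals from them would cover counting error only. Only 15 TAPEs reached the mean of 0.05 CPKM set for testing, with 107 to 805 reads each. The lowest of them had a mean of 0.0534 CPKM, and the highest TAPE left untested had 0.0483.

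The 15 TAPEs belonged to Nr2f1 (5), Lhx2 (4), Wfs1 (4) and Nr3c2 (2). RNA differed among the cultures at 11 of the 15 (73.3%), against 48.8% of 1870 TAPEs tested in the whole table, by a limma F-test on log2(CPKM + 0.05) adjusted by Benjamini-Hochberg. All 5 TAPEs of Nr2f1, all 4 of Lhx2 and both of Nr3c2 passed, and 0 of the 4 of Wfs1 did. The filter uses the mean over all libraries, so a TAPE high in 1 culture can be tested because of that culture. The share is descriptive only, since 4 of the Nr2f1 TAPEs lie close together, as do the 4 of Lhx2. Hippocampus was higher than cortex at 1 and lower at 4 of the 15, while 14.9% of all tested TAPEs passed, 5.88% higher and 8.98% lower. Hippocampus was higher than striatum at 5 and lower at 2, while 43.0% passed over all, 16.9% higher and 26.1% lower. The median log2 difference of the 15 was 0.03 from cortex and 0.15 from striatum, next to -0.12 and -0.17 over all 1870.

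**Figure D3:**
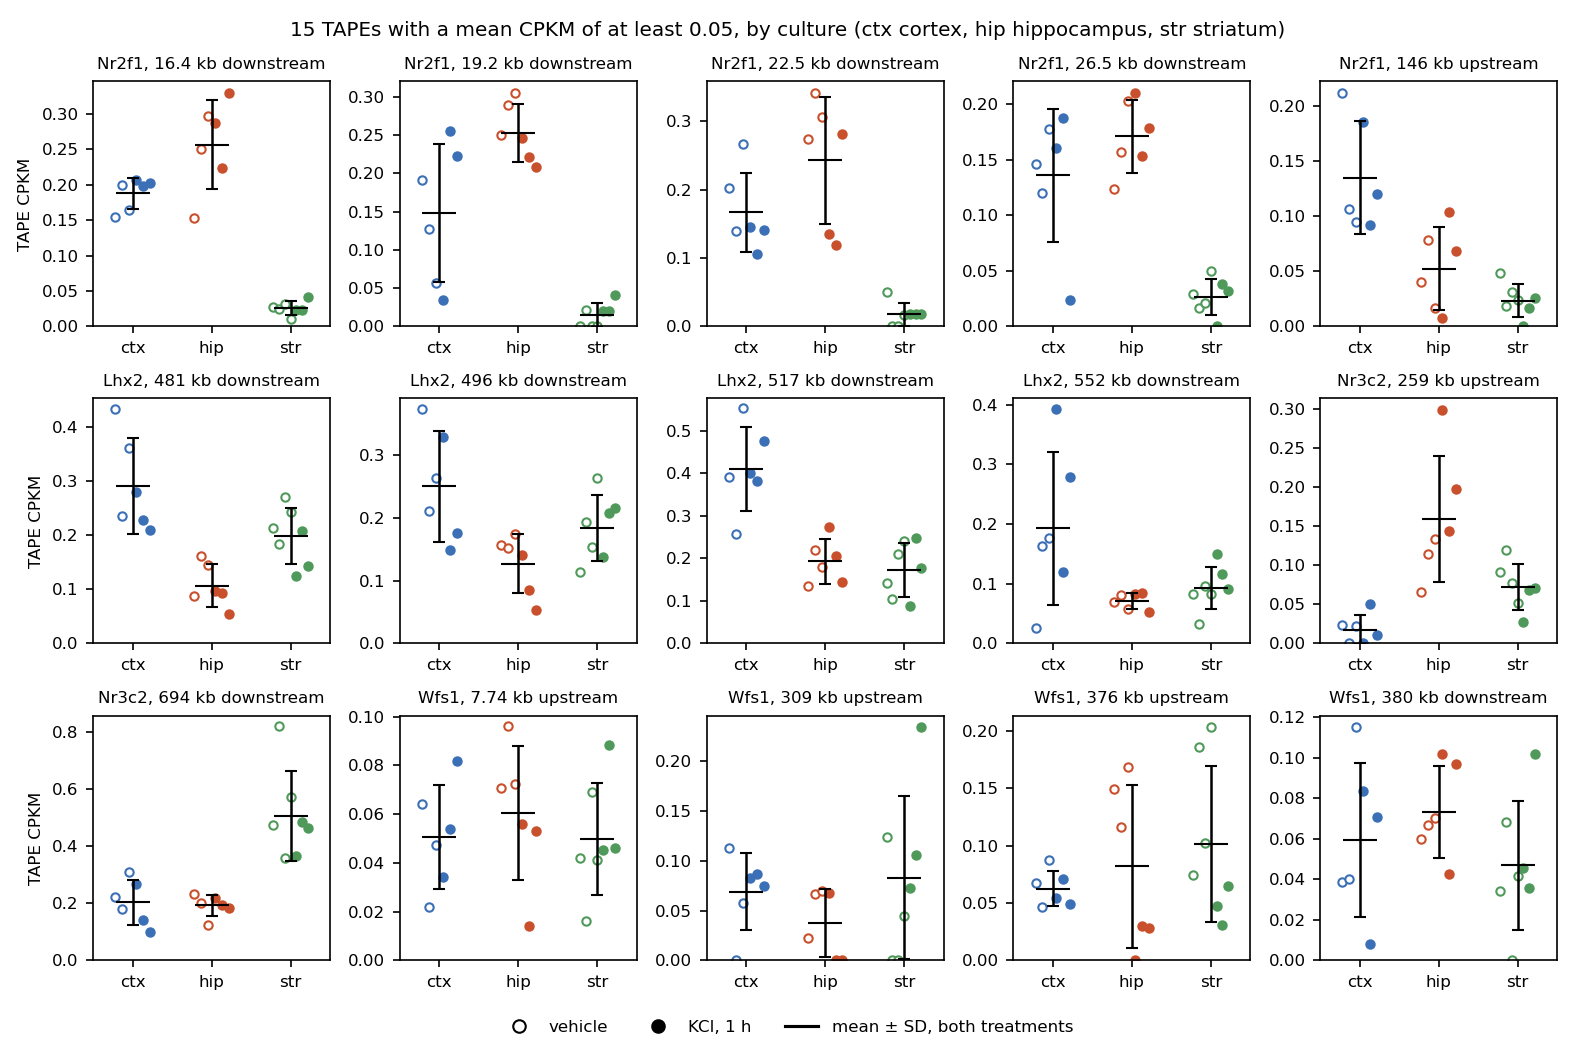
CPKM (y axis, linear, from 0) of the 15 tested TAPEs in each library, by culture (x axis). Titles give the gene and the distance of the TAPE from its start, open points are vehicle and filled points KCl libraries, and bars are the mean ± SD (n = 6, 6 and 7). At the 4 TAPEs downstream of Nr2f1, striatal values lie near 0, and at those of Lhx2, cortex has the highest mean.

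At Nr2f1 (chr2:5569935-5579894, minus strand), 4 TAPEs lay 16.4 to 26.5 kb downstream of the start, and the nearest edges were 4.79 to 15.3 kb past the annotated end of the gene. They were high in both pallial cultures and low in striatum, the order of the gene itself against striatum. The TAPE at chr2:5561912-5565145, nearest to the gene, had 0.154, 0.20 and 0.165 CPKM in cortex vehicle, 0.207, 0.198 and 0.203 in cortex KCl, 0.153, 0.250 and 0.297 in hippocampus vehicle and 0.287, 0.224 and 0.330 in hippocampus KCl. In striatum it ran from 0.0107 to 0.0415 CPKM. Every pallial library stood above every striatal one. The log2 difference between hippocampus and striatum was 1.99 (SE 0.19, limma adjusted p 6.69e-10), and that between hippocampus and cortex 0.34 (SE 0.20, adjusted p 0.273).

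The others in this run also had their lowest mean in striatum, although single cortical libraries overlapped striatum at the first and last of them in distance. At chr2:5556404-5558472 the means were 0.243 ± 0.0928 CPKM in hippocampus, 0.167 ± 0.0575 in cortex and 0.0175 ± 0.0170 in striatum, a log2 difference of 2.08 (SE 0.24) between hippocampus and striatum. At chr2:5559777-5561615 they were 0.254 ± 0.0380, 0.148 ± 0.0902 and 0.0149 ± 0.0158 (log2 2.25, SE 0.26). This TAPE had the largest difference from cortex among the run, at 0.76 (SE 0.27), with an adjusted p of 0.0531. At chr2:5552233-5554647 they were 0.171 ± 0.0325, 0.136 ± 0.0599 and 0.0268 ± 0.0161 (log2 1.54, SE 0.24). The deposited r with Nr2f1 was 0.86, 0.73, 0.73 and 0.80 in order of distance. Within a culture the r of these TAPEs with the gene ran from -0.88 to 0.96, so that the correlation over all libraries describes the cultures more than the libraries within them. Reads of the gene running past its annotated end were not separated from TAPE reads.

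The fifth Nr2f1 TAPE, chr2:5724930-5727125, lay 146 kb upstream and differed from the downstream run. It was highest in cortex, at 0.0919 to 0.212 CPKM, against 0.00797 to 0.104 in hippocampus and 0 to 0.0481 in striatum. Hippocampus was lower than cortex by -0.90 on the log2 scale (SE 0.25, adjusted p 0.0114). With vehicle libraries alone the difference was -0.98 and its adjusted p 0.0802, and without the filter on low TAPEs the adjusted p was 0.0661. Its highest r was with Fam172a (0.67), closely followed by Nr2f1 (0.66).

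At Lhx2 (chr3:22640545-22658446, plus strand), the 4 tested TAPEs lay 481 to 552 kb downstream, close to the microRNA genes Mir181a2 and Mir181b2 and to Olfml2a, and were highest in cortex although Lhx2 itself was highest in hippocampus. The TAPE at chr3:23119867-23123498 had 0.433, 0.235 and 0.360 CPKM in cortex vehicle and 0.279, 0.227 and 0.209 in cortex KCl. In hippocampus it had 0.0876, 0.161 and 0.145 with vehicle and 0.0964, 0.0923 and 0.0550 with KCl, all below cortex. Striatum, at 0.125 to 0.271 CPKM, overlapped both. The log2 difference of hippocampus was -1.13 from cortex (SE 0.22, adjusted p 2.74e-04) and -0.68 from striatum (SE 0.21, adjusted p 0.00922). The difference from striatum did not pass without the filter (adjusted p 0.0700) or with vehicle libraries alone (0.0622).

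The TAPE at chr3:23156395-23158113 was also lower in hippocampus than in cortex, at 0.193 ± 0.0521 against 0.410 ± 0.0996 CPKM (log2 -0.92, SE 0.22, adjusted p 0.00251), and near the 0.173 ± 0.0635 of striatum. The other pair was less firm. At chr3:23135501-23136743 the difference from cortex was -0.76 (SE 0.23, adjusted p 0.0210), which rose to a p as high as 0.0710 without cortex vehicle 1, cortex KCl 1, hippocampus KCl 2 or hippocampus KCl 3. It was 0.214 with vehicle libraries alone, 0.137 without the filter and 0.0804 by voom. At chr3:23191726-23192989 the F-test gave an adjusted p of 0.0474, and leaving out any of 15 of the 19 libraries took it past 0.05, up to 0.187. It was 0.640 with vehicle libraries alone, 0.255 by voom, 0.168 without the filter, 0.114 with a pseudocount of 0.01 and 0.0846 with centred libraries. The deposited r with Lhx2 was -0.20, -0.13, 0.31 and 0.09 for the 4 in order of distance, while Scai (0.87 and 0.75) or Olfml2a (0.86 and 0.54) had the highest r. Nearer to Lhx2, the TAPE 69.0 kb upstream at chr3:22570472-22572656 held 16 reads in all (6 cortex, 8 hippocampus and 2 striatum, r = 0.40) and was not tested. The one with the highest r, 0.47, at chr3:22761227-22763450, held 4, 7 and 0.

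At Nr3c2 (chr19:34448289-34752695, minus strand), both tested TAPEs lay far from the start and differed from each other. The upstream TAPE chr19:35010628-35011974, at 259 kb, was higher in hippocampus than in cortex, as the gene was, but lowest in cortex, where the gene was lowest in striatum. It had 0.0656, 0.115 and 0.134 CPKM in hippocampus vehicle and 0.299, 0.144 and 0.198 in hippocampus KCl, against 0 to 0.050 in cortex and 0.0280 to 0.120 in striatum. All hippocampal libraries stood above all cortical ones and overlapped striatum, and in hippocampus those with KCl stood above those with vehicle, the reverse of the gene (KCl log2 0.75, limma adjusted p 0.360). The log2 difference was 1.59 from cortex (SE 0.25, adjusted p 2.56e-05) and 0.73 from striatum (SE 0.25, adjusted p 0.0175). The latter no longer passed without hippocampus KCl 1 (log2 0.56, adjusted p 0.0671) or with vehicle libraries alone (log2 0.20, adjusted p 0.649), nor without the filter (0.0849), by voom (0.0728) or with a pseudocount of 0.01 (0.0709). Its r was 0.58 with Nr3c2 and 0.80 with Tmem184c.

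The downstream TAPE chr19:34058207-34059653, at 694 kb, was highest in striatum, at 0.506 ± 0.158 CPKM against 0.193 ± 0.0372 in hippocampus and 0.203 ± 0.0781 in cortex. Its log2 difference between hippocampus and striatum was -1.17 (SE 0.20, adjusted p 2.31e-05), and its r with Nr3c2 was -0.55. The TAPE nearest to the start, 121 kb upstream at chr19:34872907-34874536, held 8, 17 and 26 reads in cortex, hippocampus and striatum (r = -0.00). The one with the highest r, 0.78, lay 883 kb upstream at chr19:35634652-35636707, with 13 reads in hippocampus and 0 in the other cultures. Choosing by r favours such a split, because the gene itself was highest in hippocampus. These TAPEs were not tested.

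At Wfs1 (chr14:78640620-78665966, plus strand), none of the 4 tested TAPEs differed among the cultures. The nearest, 7.74 kb upstream at chr14:78631634-78634135, had 0.0605 ± 0.0274 CPKM in hippocampus, 0.0506 ± 0.0212 in cortex and 0.0498 ± 0.0229 in striatum, all overlapping (limma F-test, adjusted p 0.848). Its difference between hippocampus and striatum was 0.14 (SE 0.22), next to 0.61 for the gene. The highest r of a Wfs1 TAPE was 0.49, at chr14:79501686-79502879, which held 8 reads.

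At the other loci no TAPE was deep enough for the test, and reads are given as sums over the libraries of a culture. A TAPE named for the highest r with a gene high in hippocampus tends by that choice to be high there too. Its split of reads is then no separate result. The clearest difference between cultures was at Zic1 (chr8:98734295-98738446, minus strand). The TAPE at chr8:98777105-98779331, 39.8 kb upstream and nearest to Zic1's neighbour Zic4, had 5, 2 and 6 reads in hippocampus vehicle and 19, 11 and 10 in hippocampus KCl, and 0 in all 13 cortical and striatal libraries. With a nominal 3 reads in place of 0 over a culture, its 53 reads would be 19.4-fold the level of cortex. Against striatum the ratio would be 19.6, both relative to library totals. These ratios are not bounds, because PCR copies were kept and mates of a pair were probably counted as separate reads. The r of this TAPE with Zic1 was 0.83, and without the filter on low TAPEs its adjusted p was 7.55e-05 against cortex and 1.06e-05 against striatum.

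At Nr2f2 (chr1:131448447-131460473, minus strand), the TAPE at chr1:131377600-131380957, 81.2 kb from the start, was named for the highest r, 0.89. It had 4 to 10 reads in each hippocampal library, 41 in all, with 0 in cortex and 2 in a single striatal library. With the same nominal 3 reads in cortex, this TAPE would be 15-fold higher in hippocampus. The one at chr1:131463665-131465448, 4.08 kb from the start, had 22 reads in cortex, 30 in hippocampus and 0 in striatum (r = 0.54). With a nominal 3 reads in striatum, it would be 11.1-fold higher in hippocampus. A further TAPE at chr1:131428340-131430092 had 13, 40 and 8 reads (r = 0.81). Without the filter, these 3 were the only TAPEs of the 11 at this locus to pass the F-test. The last was named because it passed. Over the whole table, 5.31% of untested TAPEs passed in this way. Hippocampus and striatum differed at all 3, with limma adjusted p of 8.65e-04, 0.00302 and 0.00189, and hippocampus and cortex at the first only (0.00253).

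Lhx9 (chr13:55861015-55878094, minus strand) and Lef1 (chr2:236233239-236345056, plus strand) had few TAPE reads for their clear gene differences. The Lhx9 TAPE nearest to the start, chr13:55944243-55946434, held 2 reads in cortex, 2 in hippocampus and 11 in striatum (r = -0.26), and that with the highest r (0.66), chr13:56492137-56493394 at 615 kb, held 2, 11 and 0. The Lef1 TAPE nearest to the start, chr2:236206212-236208373, 25.9 kb upstream, held 4 reads, all in hippocampus (r = 0.49), and that with the highest r (0.60), chr2:236046149-236048219, held 0, 10 and 2. Etv1 (chr6:58467254-58558631, plus strand) had 9 TAPEs, none within 100 kb, and 105 reads in all. Its highest r was 0.28, at chr6:58641927-58644512 (4, 2 and 0 reads), and its nearest TAPE, at chr6:58333401-58334604, held 2, 2 and 5. Without the filter on low TAPEs, no TAPE of Lhx9 or Etv1 passed the F-test over the cultures, and 1 of Lef1 did, at chr2:235329704-235330852, with 25 reads in cortex, 4 in hippocampus and 6 in striatum.

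Without the filter on low TAPEs, 12 of the 160 TAPEs that had been left untested passed the F-test over the cultures (7.50%), against 1363 of 25668 over the whole table (5.31%). They were 3 each of Nr2f1, Nr2f2 and Nr3c2 and 1 each of Lef1, Wfs1 and Zic1. Besides those given above, the largest were at Nr2f1. The TAPE at chr2:5730918-5736374 held 164, 52 and 40 reads in cortex, hippocampus and striatum, and that at chr2:6350559-6352769 held 37, 57 and 8. At Wfs1, chr14:78917334-78919502 held 11, 49 and 19. At Nr3c2, chr19:35427584-35428832 held 2, 15 and 0 reads with r = 0.78, and chr19:35373671-35375088 held 2, 19 and 0 with r = 0.51.

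**Figure D4:**
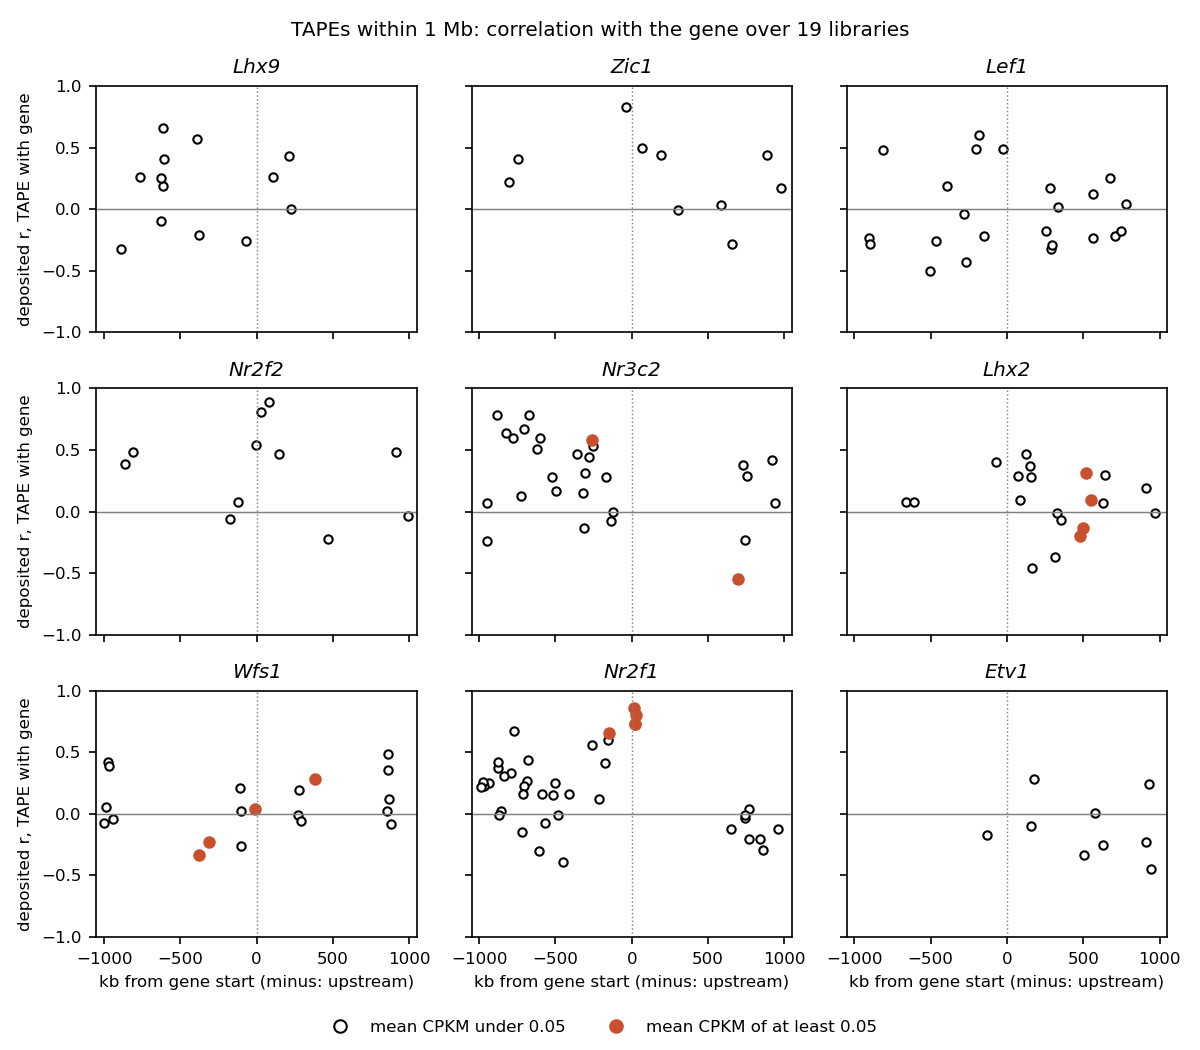
Deposited Pearson r between TAPE CPKM and the gene over 19 libraries (y axis) against the distance of the TAPE from the gene's start in kb (x axis, minus is upstream), for each gene. Filled orange points are the 15 tested TAPEs (mean of 0.05 CPKM or more), and open points are all others. The highest points lie within 100 kb of the start at Zic1, Nr2f1 and Nr2f2, and farther away at Lhx9, Lef1 and Nr3c2.

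Over all 175 pairs, 25 (14.3%) had a deposited r above 0.5, against 5.30% of all 388605 pairs. They were 9 pairs of Nr3c2, 8 of Nr2f1, 3 of Nr2f2, 2 each of Lhx9 and Zic1 and 1 of Lef1, and Lhx2, Wfs1 and Etv1 had 0. Both numbers of a pair come from the same libraries and share their totals, and most TAPEs behind these r values hold few reads. Of the 175 TAPEs, 61 had 1 of the 9 genes as the gene with the highest r, among them 23 of 41 at Nr2f1, 19 of 28 at Nr3c2 and 10 of 11 at Nr2f2. These loci hold few genes, and a TAPE was paired with a median of 2 genes at Nr2f1, 3 at Nr3c2 and 1 at Nr2f2, which leaves little choice of a best gene.

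Summing all TAPEs of a locus in each library gave totals in per-million reads (RPM) that could be set beside the gene. At Nr2f1 they were 3.24 ± 0.440 in hippocampus, 3.22 ± 0.469 in cortex and 0.867 ± 0.152 in striatum, and r with the gene was 0.93 over 19 libraries. Nr2f2, at 0.412 ± 0.0455, 0.155 ± 0.0842 and 0.0590 ± 0.0586 RPM, had r = 0.93, and Zic1, at 0.263 ± 0.0997, 0.0464 ± 0.0471 and 0.0127 ± 0.0170, had r = 0.90. Most of the 2652 reads at Nr2f1 came from the 4 tested TAPEs downstream, where reads running past the gene's end were not separated. Most of the 90 hippocampal reads at Zic1 came from its nearest TAPE. The summed TAPEs of Lhx2 ran against the gene between hippocampus and cortex, with 1.21 ± 0.243 RPM in hippocampus, 2.57 ± 0.524 in cortex and 1.54 ± 0.361 in striatum (r = 0.05). Most of the 1965 reads behind this sum came from the 4 distant tested TAPEs, whose highest r was with Scai or Olfml2a. Nr3c2 had 1.2 ± 0.273, 0.557 ± 0.167 and 1.17 ± 0.310 RPM (r = 0.34). There, most of the 444 striatal reads came from the distant downstream TAPE at chr19:34058207-34059653. For Lhx9, Wfs1, Etv1 and Lef1 the r was 0.47, 0.16, -0.29 and -0.35, and the ranges of the 3 cultures overlapped at each of these loci.

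Nr3c2 was lower and Nr2f1 higher after 1 h of KCl, and the other 7 genes did not pass over the cultures. The stratified exact permutation test over the 3 cultures, adjusted over 16573 genes, called 2 of 9, a share near the 21.0% of all genes. The adjusted p was 0.00754 for Nr3c2 and 0.0316 for Nr2f1. Nr3c2 fell in hippocampus from 104, 126 and 116 CPM with vehicle to 96.9, 85.0 and 87.7 with KCl. In striatum it went from 20.6, 20.7, 19.2 and 20.6 to 17.5, 17 and 16.4, and in cortex from 36.9, 32.3 and 42.1 to 32.4, 32.3 and 34.3. All KCl libraries lay below all vehicle libraries in hippocampus and striatum, while cortex overlapped. Over all genes, 16.3% in hippocampus and 18.7% in striatum lay wholly below in this way. By voom the log2 difference was -0.36 in hippocampus (SE 0.065, adjusted p 5.01e-04), -0.26 in striatum (SE 0.10, adjusted p 0.0850) and -0.15 in cortex (SE 0.083, adjusted p 0.290), and the difference of these effects among cultures had an adjusted p of 0.592.

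The change of Nr2f1 was small, from 92.0 ± 2.74 to 97.9 ± 2.74 CPM in hippocampus, 108 ± 4.65 to 115 ± 1.66 in cortex (n = 3 each) and 18.3 ± 0.792 (n = 4) to 18.7 ± 1.17 in striatum (n = 3). It lost the threshold when any of 8 libraries was left out (cortex KCl 1, 2 or 3, hippocampus vehicle 1 or 3, hippocampus KCl 1 or 3, or striatum KCl 1), with an adjusted p of up to 0.0823 in the permutation test. By voom within each culture, 9.26% of genes passed in cortex (6.11% higher and 3.14% lower), 11.1% in hippocampus (3.97% and 7.18%) and 17.7% in striatum (5.43% and 12.2%). Of the 9 genes, Lef1 was higher with KCl in cortex, at 6.44, 4.91 and 5.35 CPM against 3.93, 3.70 and 4.10, with no overlap, as had 7.76% of all genes (log2 0.49, SE 0.15, adjusted p 0.0359). In hippocampus, Lef1 had 15.6 ± 1.80 CPM with KCl and 15.9 ± 1.49 with vehicle. Nr2f2 was higher with KCl in hippocampus, at 49.3, 46.7 and 52.2 CPM against 43.5, 41.2 and 45.8, also without overlap, as had 7.89% of all genes (log2 0.18, SE 0.055, adjusted p 0.0289). No member passed in striatum, and none had an effect that differed among the cultures, the smallest adjusted p of the interaction being 0.159, for Lef1, where 3.71% of all genes passed.

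**Figure D5:**
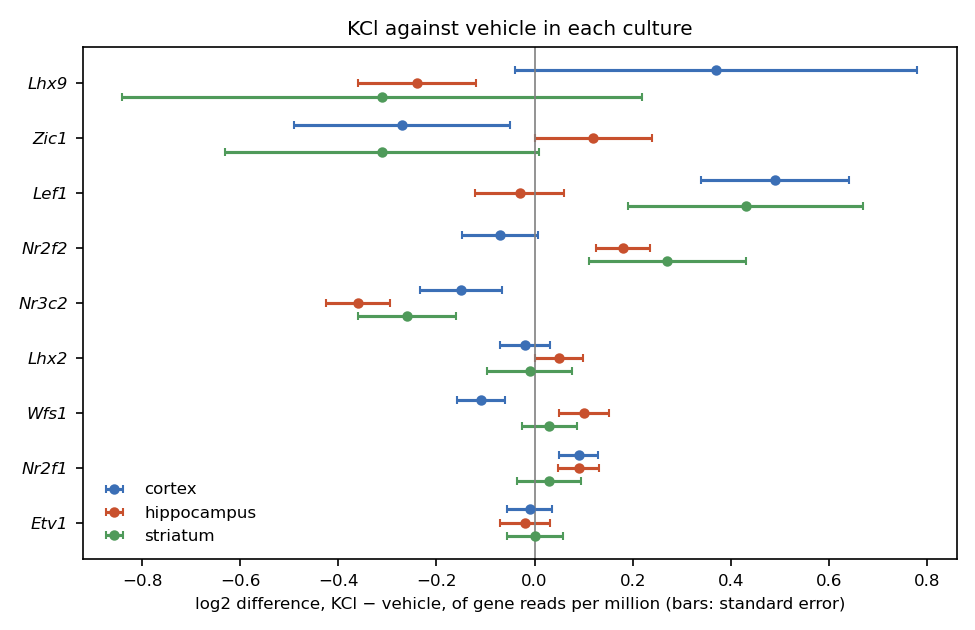
Log2 difference of gene CPM between KCl and vehicle (x axis) in cortex (blue), hippocampus (orange) and striatum (green) for the 9 genes, from limma voom, with standard errors as bars. Nr3c2 lies below 0 in all 3 cultures, and Lhx2, Wfs1, Nr2f1 and Etv1 lie within 0.11 of 0.

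No tested TAPE of these genes passed for KCl in any culture. The background was low as well, with 0.321% of 1870 TAPEs called in cortex, 0.0535% in hippocampus and 1.23% in striatum. At an unadjusted p under 0.05 there were 1, 3 and 3 of the 15 in limma. This threshold is looser than that of the percentages above, so these counts cannot be set against them. Voom on the recovered reads called 0 of the 15 in each culture. The smallest adjusted p in cortex, hippocampus and striatum was 0.461, 0.154 and 0.211. The smallest in hippocampus, named here after its values were seen, belonged to the TAPE at chr14:78264208-78265396, 376 kb upstream of Wfs1 and closer to Crmp1. It had 0.149, 0.116 and 0.168 CPKM with vehicle and 0, 0.0297 and 0.0280 with KCl, without overlap, which is 10, 8 and 11 reads against 0, 2 and 2 (log2 -1.51, SE 0.31).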

How the data were processed

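The deposited table lists pairs of TAPEs and genes up to 1 Mb apart, with TAPE values for 19 libraries and Rn6 coordinates. The authors trimmed reads with Trim Galore 0.4.5, aligned them with STAR to Rn6, built the TAPE set from merged ATAC-seq peaks with the RNA reads, and counted reads over both strands in SeqMonk. Per the labels, SAMtools 1.9 was also used. The deposited TAPE values are RPKM (named CPKM by the study) on a linear scale. The r columns deposited beside them hold a score, Pearson r over all libraries (global) and within each culture. The table holds no other comparison by the authors that was used.

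Multiplying CPKM by length and library total gave whole reads for 100.0% of values (within 0.01 read). Gene reads per library were solved from each gene's deposited correlations with the TAPE profiles for 16573 of 17715 symbols (93.6%). The solutions returned each deposited r to within 1.1e-14, and reads lay within 0.014 of a whole number. They are the smallest whole numbers that fit, so that genes with very few reads may lack a common factor, though ratios between libraries do not depend on it. For Zic1 (6 libraries), Nr2f2 (3) and Etv1 (3), some libraries were filled by the 1 whole-number solution that met all correlations. The authors counted gene reads over SeqMonk gene probes, in CPKM, with duplicates kept, and the exact extent of those probes is not given in the sources used here.

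TAPE tests used limma 3.58.1 in R 4.3.3 on log2(CPKM + 0.05), which understates changes of low TAPEs, for the 1870 TAPEs with a mean of at least 0.05. They were two-sided, with eBayes and a trend, and were adjusted by Benjamini-Hochberg. Gene tests were exact permutation tests with 924 (hippocampus and cortex), 1716 (hippocampus and striatum) and 14000 arrangements (KCl, within cultures, smallest p 7.14e-05). The limma voom fits of gene reads, for genes with a mean of at least 10 reads, were added after the data were seen. No 2 libraries held identical values. Replicate numbers were not used to pair samples, except in the replicate block setting. The scripts were tested on simulated data, using Python 3.11.15, numpy 2.4.6, scipy 1.17.1, pandas 2.3.3 and matplotlib 3.10.9.

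The members and the gene lists were chosen with earlier results of these data known. Genes of the lists without a value were Dlx6, Nfix and Nr3c1 (not analysed here) and Pax6, Lhx8 and Aif1, whose correlations were too few to solve. TAPEs were named by rule: the nearest to the gene's start, the one with the highest global r, and up to 4 tested TAPEs with the smallest adjusted p of the F-test. Others are named where they were tested or passed without the filter, the latter chosen after their values were seen.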

Additional observations from a re-analysis of the deposited data

Results flagged for a closer look

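Of 96 groups of 4 to 7 libraries examined, 6 held 1 value that stood apart from the rest by Dixon's criterion, which chance gives in about 1 of 20 groups. Lhx9 had 0.262 CPM in striatum vehicle 4, while the other striatal libraries had 0.0691 to 0.141. Zic1 had 0.422 CPM in striatum KCl 7, against 0.810 to 0.947 in the others. Nr3c2 had 19.2 CPM in striatum vehicle 6, against 20.6 to 20.7 in the other vehicle libraries. Etv1 had 95.2 CPM in cortex vehicle 2, against 89.3 to 91.4 in the other cortex libraries.

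The 2 TAPE values that stood apart were downstream of Nr2f1 and rest on few reads. The TAPE at chr2:5556404-5558472 had 0.0510 CPKM (6 reads) in striatum vehicle 2, against 0 to 0.0185 in the other striatal libraries. The TAPE at chr2:5559777-5561615 had 0.0219 CPKM (2 reads) in striatum vehicle 4, while the other vehicle libraries of striatum were at 0.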

How the results depend on the processing

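The direction of each called gene and TAPE difference between cultures held under every alternative run, and each region call of a gene held under every one but the replicate block. Whether equal replicate numbers pair the samples was not settled. Same-numbered deviations had r from -0.23 to 0.10 over genes and from -0.04 to 0.02 over TAPEs. Other-numbered ones had -0.30 to 0.32 and -0.03 to 0.03, and 2 of 12 libraries were closest to their own number. Deviations within groups of 3 libraries cannot exclude a pairing. With the replicate block, 0 of 9 genes were called between hippocampus and cortex (of all genes 0, with 6972 without it, and 6927 at an unadjusted p under 0.05), with an adjusted p of 0.0748 for 8 of the 9. Its 64 arrangements give no p below 0.0312. The block gave 10, 5 and 5 TAPEs for the F-test, hippocampus against cortex and hippocampus against striatum, and 0 for KCl. It left the Lhx2 TAPE at 23191726 (F-test, adjusted p 0.0854) and, against striatum, the Lhx2 TAPE at 23119867 (0.255) and the Nr3c2 TAPE at 35010628 (0.104) past the threshold of 0.05. Without the filter on low TAPEs, 21 of 175 TAPEs passed the F-test and 15 differed between hippocampus and striatum. With vehicle libraries alone, 3 differed between hippocampus and cortex. Leaving out each library gave 9 to 11, 4 to 6 and 6 to 7 TAPEs, 8 and 9 genes in the region tests and 1 to 2 genes for KCl. Ranks called 1 gene for KCl, and in 1 fit of all groups 1 TAPE was called for KCl in hippocampus. With median-ratio scaling, voom called 2 genes for KCl in cortex, since Nr2f1 passed there (log2 0.12, adjusted p 0.0389), as it did in hippocampus (0.13, adjusted p 0.0309).

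Among KCl effects that did not pass, ranks turned Etv1 (mean rank difference 0.39) and Zic1 (-0.17). Median-ratio scaling turned Etv1 (log2 0.02 in cortex and in hippocampus, 0.06 in striatum), Lhx2 (0.01 in cortex, 0.06 in striatum) and Lef1 (0.01 in hippocampus). Leaving out 1 library moved the profile difference over -0.05 to 0.01 for Etv1, -0.03 to 0.07 for Wfs1 and -0.02 to 0.08 for Zic1. Median-ratio scaling also raised the share of voom KCl calls that were higher from 66.0% to 78.9% in cortex, 35.6% to 55.1% in hippocampus and 30.7% to 63.9% in striatum.

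Over all TAPEs, counts moved by over 1.5 times in some settings. The F-test, 912 in all, called 482 with a mean CPKM of at least 0.1 and 2026 without a filter. Hippocampus against cortex, 278 in all, gave 166 and 454, and 165 with vehicle libraries alone. Hippocampus against striatum, 804 in all, gave 438 and 1765, and 484 with the block. For KCl, cortex gave 6, against 0 without a filter, 10 with centred libraries, 3 with the block and 12 in 1 fit of all groups. Hippocampus gave 1, against 9 with the higher filter, 0 without one, 4 centred, 0 with the block and 19 in 1 fit. Striatum gave 23, against 2 without a filter. Leaving out a library gave 3 to 5, 0 and 0 to 8. Leaving out single libraries was not run for voom. The planned quasi-likelihood count model was not run, because the deposited unit is not counts. The cause of these moves was not tested. Depth limits the TAPE results: 160 of 175 TAPEs were too low to test.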
